A study of Mus musculus with 6 samples.

Results

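The members described here are 10 genes of the Notch pathway: the receptors Notch1, Notch2, Notch3 and Notch4, the ligands Jag1, Jag2 and Dll1, and the target genes Hes1, Hey1 and Heyl. They were taken by their gene name from a table of 22162 genes, and all 10 were found, each in 1 row. The table comes from poly(A) RNA-Seq of mouse skin fibroblasts (MSFs), with 3 libraries labelled TAM and senescent and 3 labelled EtOH and non-senescent. The MSFs were isolated from the dorsal skin of a female FASST mouse on the FVB/N background, and the age of that mouse is not given in the sources used here. All libraries therefore share the FASST alleles, a tamoxifen-dependent Cre-ERT2 driven by a regulatory sequence of the pro-alpha 2(I) collagen gene and a p27Kip1 cassette at ROSA26 that stays silent until Cre removes a stop. All cultures were also kept at 3% oxygen. TAM cells received 10 µM tamoxifen for 48 h and EtOH cells received ethanol, so an effect of the drug itself and an effect of senescence cannot be told apart. The methods name no further animal for the MSFs, and the labels do not say that the libraries of a group came from separate animals. The p-values therefore measure the spread between these libraries, which may be technical, and not the spread between animals.

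Notch proteins are receptors on the cell surface that are activated by ligands of the Jagged and Delta-like families on a neighbouring cell. Binding leads to cleavage of the receptor, first by ADAM proteases outside the membrane and then by γ-secretase within it. The freed intracellular domain joins the DNA-binding protein RBPJ and Mastermind co-activators in the nucleus and switches on genes such as those of the HES and HEY families, which encode transcriptional repressors. In skin the pathway is best known for keratinocyte differentiation and for vessel walls, and dermal fibroblasts also carry receptors and ligands.

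The promoters of the ligand Jag1, the member with the most evident difference below, and of Hes5, a well-known target gene, are shown to mark where these factors could find their letters. Both come from RefSeq on GRCm38.p6 and run 5′ to 3′ on the strand of the gene. Only bases ahead of any annotated transcript are printed. In Jag1 (minus strand, chr2:137116645-137116770), capitals mark CACGCG or its reverse CGCGTG, a site that HES and HEY repressors can bind. In Hes5 (plus strand, chr4:154960673-154960922), capitals mark TGGGAA, the core of the RBPJ site, or its reverse TTCCCA.
Jag1: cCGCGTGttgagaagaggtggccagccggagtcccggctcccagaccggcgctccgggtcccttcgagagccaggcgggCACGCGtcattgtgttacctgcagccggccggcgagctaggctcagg
Hes5: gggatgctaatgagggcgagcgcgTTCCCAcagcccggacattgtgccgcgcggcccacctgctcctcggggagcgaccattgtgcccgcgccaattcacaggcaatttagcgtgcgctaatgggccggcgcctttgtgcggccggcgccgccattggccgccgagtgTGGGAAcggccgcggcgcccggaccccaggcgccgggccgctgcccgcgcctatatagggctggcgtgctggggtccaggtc
In Jag1 the matches begin 171 and 249 bases before the RefSeq start, and in Hes5 they begin 82 and 226 bases before it. The RefSeq table held 8 promoter windows for 7 of the 10 members, those of the 4 receptors and the 3 ligands. In the 250 bases before the start, 0 of the 8 windows held TGGGAA on either strand, where 21.6% of all 32851 windows did. The site CACGCG was found for Jag1, Notch2 and Dll1, in 3 of the 8 windows, against 7.62% of all windows. The E box CACGTG, which reads the same on both strands and shares 5 letters with CACGCG, was in 0 of the 8 windows and in 6.02% of all. A match describes these letters only.

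Values are the normalized counts that the authors deposited, which are scaled read counts per gene. To compare genes with each other they were turned into c.p.m. of the library sum and divided by the length of the exons in kilobases. On this scale Notch2 was the most abundant member, with 20.2 ± 6.26 (SD, n = 3) in EtOH and 20.5 ± 8.21 (SD, n = 3) in TAM MSFs. Hes1 followed with 11.9 ± 3.35 and 15.7 ± 3.36, then Jag1 with 3.39 ± 1.47 and 8.75 ± 4.54, and Notch1 with 1.66 ± 0.599 and 2.79 ± 1.30 (SD, n = 3 each). Notch3, Dll1, Notch4, Hey1, Jag2 and Heyl came next, with means over the 6 libraries of 0.713, 0.430, 0.152, 0.0892, 0.0775 and 0.00969. Each neighbour in this order overlapped the next in its range over the 6 libraries, except Jag2 and Heyl. The lowest Notch2 value, 13.1, lay above the highest Notch1 value, 4.20. With the longest coding transcript as the length, the order of the means over the 6 libraries was the same. In TAM MSFs, however, Hes1 then averaged 21.8 and Notch2 20.5, while in EtOH MSFs they averaged 16.6 and 20.2.

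**Figure D1:**
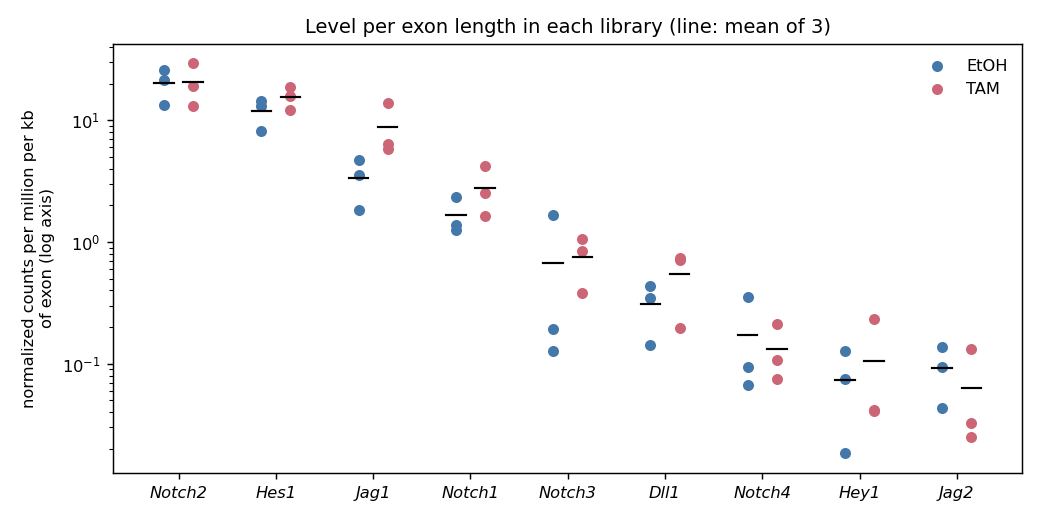
Level of each member in each library, in c.p.m. per kilobase of exon on a log axis, with EtOH libraries in blue, TAM libraries in red and a line at the mean of 3. Notch2, Hes1, Jag1 and Notch1 lie above 1 in every library; Heyl, at 0 in 2 libraries, is not drawn.

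MSFs in both groups thus carried mainly Notch2 among receptors and Jag1 among the 3 ligands listed. Notch2 made up 79.7% to 93.4% of the length-scaled receptor signal in EtOH and 83.8% to 85.4% in TAM libraries. These shares use all exons as the length and depend on that choice. With the longest coding transcript, Notch1 averaged 2.49 in EtOH and 4.18 in TAM MSFs in place of 1.66 and 2.79. Notch1 made up 5.48% to 8.29% in EtOH and 10.7% to 12.2% in TAM libraries. These ranges did not overlap, but the Notch1 counts themselves did. The share is given with no test, and it is close to the ratio of Notch1 to Notch2 given below, not a separate result. Jag1 made up 86.8% to 90.1% of the signal of the 3 ligands in EtOH and 88.4% to 96.4% in TAM libraries. All 10 fibroblast markers examined, such as Col1a1 and Pdgfra, passed 1 c.p.m. in at least 3 libraries, and their summed level was 1540393 to 1686820 normalized counts in EtOH and 690117 to 1143289 in TAM libraries. Most of that sum came from collagens, and not all markers were lower in TAM: Thy1 had 1036, 2165 and 571 in EtOH replicates 1, 2 and 3 and 2366, 4122 and 2246 in TAM replicates. The part of these levels in the members' values was not tested. Fewer cells of a type and less RNA per cell cannot be told apart in such bulk samples. Cdkn1b, the endogenous gene for p27Kip1, had 1427, 3074 and 1853 normalized counts in EtOH replicates 1, 2 and 3 and 1699, 1520 and 1630 in TAM replicates. It was not higher in TAM libraries, and whether reads of the ROSA26 cassette were counted on it is not given in the sources used here.

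No member passed the test between TAM and EtOH MSFs. Genes were tested with limma on log2(normalized counts + 1) where they reached 1 c.p.m., or 16.2 normalized counts, in at least 3 libraries. This held for 11877 genes and for 6 members, Notch1, Notch2, Notch3, Jag1, Dll1 and Hes1. At a Benjamini-Hochberg adjusted p under 0.05, limma called 0 of the 6, where it called 0.168% of all genes tested as higher and 0.0758% as lower, 0.244% together. With the replicate number as a block it also called 0 of the 6, where the shares of all genes were 1% and 0.615%, 1.62% together. At an unadjusted p under 0.05, 1 member, Jag1, was higher and 0 were lower, against 6.67% and 6.7% of all genes. With the block these were 2, Jag1 and Notch1, and 0, against 8.64% and 8.32%. Of the 6 members 5 had a positive log2 fold change and 1 a negative one, with a median of 0.60 beside −0.03 over all genes tested. Over all 11877 genes 5487 were positive and 6390 negative. Among the positive members, Notch3 had nearly equal group means, 92.3 normalized counts in EtOH and 93.9 in TAM MSFs.

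**Figure D2:**
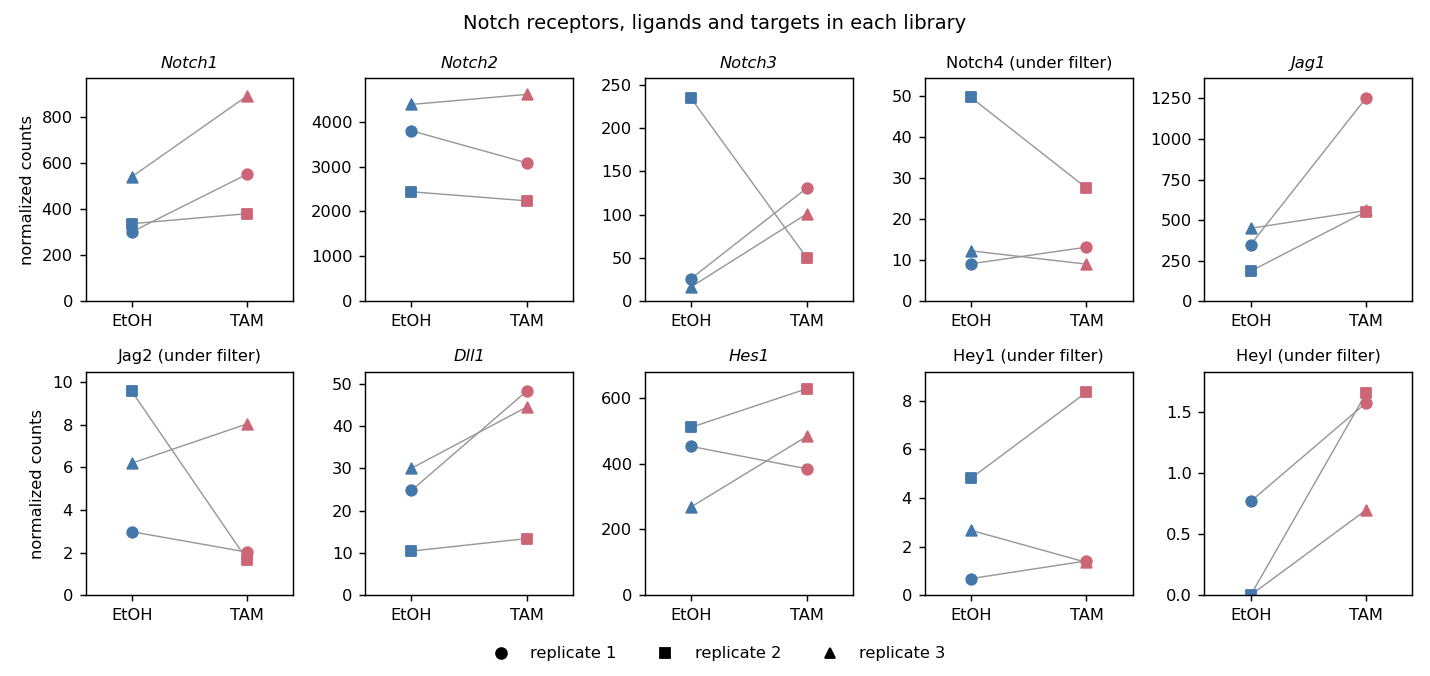
Normalized counts of each member in the 6 libraries, on linear axes that start at 0; symbols give the replicate number and grey lines join libraries with the same number. The TAM values of Jag1 lie above all EtOH values, and the other 9 members overlap between the groups.

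Notch2 (ENSMUSG00000027878; mm9 chromosome 3, 97817461 to 97954290) is the main receptor here. Its normalized counts were 3795, 2438 and 4382 in EtOH replicates 1, 2 and 3 and 3080, 2236 and 4606 in TAM replicates. The groups overlapped fully, and replicate 2 was the lowest of each group. In limma the log2 fold change came to −0.12 ± 0.33 (SE), at an adjusted p of 0.911, with a 95% confidence interval of −0.89 to 0.66, and it turned to 0.06 without EtOH replicate 3 and to 0.13 without TAM replicate 2. With the block the interval narrowed to −0.55 to 0.31.

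Notch1 (ENSMUSG00000026923; chromosome 2, 26313423 to 26359342) is the receptor best studied in keratinocytes and T cells. It had 302, 338 and 541 normalized counts in EtOH replicates 1, 2 and 3 and 553, 381 and 894 in TAM replicates. Each TAM library was above the EtOH library of its number, but TAM replicate 2 lay below EtOH replicate 3. In limma the log2 fold change came to 0.59 ± 0.36 (SE), at an adjusted p of 0.545 and an unadjusted p of 0.145. Blocking on the replicate number lowered the SE to 0.21, at an adjusted p of 0.254 and an unadjusted p of 0.0336 in limma. Relative to Notch2 in the same library, there were 7.95, 13.8 and 12.4 Notch1 counts per 100 Notch2 counts in EtOH and 18.0, 17 and 19.4 in TAM replicates. These ranges did not overlap, and how many other gene pairs separate in this way was not computed. Such a ratio is free of a factor shared by a whole library, but not of an adjustment that differs between genes. The deposited values appear adjusted by gene: in EtOH replicate 1 the values under 1 differed, such as 0.55 for Vwf and 0.77 for Heyl. This ratio and 3 others below were chosen after the values were seen and are given with no test. On the opposite strand 0610009E02Rik covers 7.5% and Gm13568 covers 2.91% of the Notch1 exons, and no source used here names the strand setting of the counting.

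Notch3 (ENSMUSG00000038146; chromosome 17, 32257765 to 32303825) is the receptor typical of pericytes and vascular smooth muscle. Its normalized counts were 26.3, 234 and 16.7 in EtOH replicates 1, 2 and 3 and 131, 50.3 and 101 in TAM replicates. EtOH replicate 2 stood far above the other EtOH libraries and above every TAM library. In limma the log2 fold change came to 0.87 ± 0.95 (SE), at an adjusted p of 0.741. Without EtOH replicate 2 it was 2.01 (adjusted p = 0.202; unadjusted p = 0.00687), and without EtOH replicate 3 it was 0.14. Of 10 pericyte and smooth muscle markers 7 passed the filter and Kcnj8 was at 0 in all libraries. Their summed level, nearly all from the smooth muscle actin Acta2, was 18602 to 59186 in EtOH, lowest in replicate 2, and 28708 to 113805 in TAM libraries. Single markers differed from the sum. The pericyte proteoglycan Cspg4 had 233, 680 and 379 normalized counts in EtOH replicates 1, 2 and 3, highest in replicate 2 as Notch3 was. In TAM replicates it had 102, 787 and 198, highest in replicate 2, where Notch3 was lowest. Of the other markers that passed the filter, Acta2, Cnn1, Myh11, Mcam and Rgs5 were lowest in EtOH replicate 2 and Lmod1 in EtOH replicate 3. The smooth muscle myosin Myh11 had 94.4 to 227 in EtOH and 479 to 1568 in TAM libraries, without overlap. Cnn1 and Mcam also had all TAM libraries above the EtOH libraries, as 9.19% of all genes tested did. Acta2, Cspg4, Rgs5 and Lmod1 overlapped between the groups. Whether pericytes or smooth muscle cells were present, and what part they had in the Notch3 values, was not tested. Gm17276, on the opposite strand, covers 6.07% of the Notch3 exons.

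Notch4 (ENSMUSG00000015468; chromosome 17, 34701213 to 34725448), the receptor of endothelial cells, stayed under the filter. It had 9.16, 49.8 and 12.3 normalized counts in EtOH replicates 1, 2 and 3 and 13.2, 27.6 and 9.07 in TAM replicates. Replicate 2 was the highest in each group and the groups overlapped. Among 10 endothelial markers, 1 passed 1 c.p.m. in 3 libraries, and Cldn5 and Sox17 were at 0 in all libraries. Pecam1 had 3.49 to 4.76 normalized counts in EtOH and 2.83 to 11.3 in TAM libraries. The endothelial list summed to 107 to 247 in EtOH and 28.2 to 50.9 in TAM libraries. Most of the EtOH sum came from the VEGF receptor Kdr, at 68.7 to 205 in EtOH and 4.84 to 14.0 in TAM libraries. Vwf went the other way, at 0.55 to 6.65 in EtOH and 8.36 to 10.1 in TAM libraries. The part of these markers in the Notch4 values was not tested.

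Jag1 (ENSMUSG00000027276; chromosome 2, 136907192 to 136942380) encodes Jagged 1, the main ligand in these cells. It had 349, 186 and 450 normalized counts in EtOH replicates 1, 2 and 3 and 1254, 553 and 560 in TAM replicates. The 3 TAM libraries lay above the 3 EtOH libraries, as they did for 9.19% of all genes tested, and TAM replicate 1 was well above the other TAM libraries. EtOH MSFs averaged 329 ± 133 (SD, n = 3) and TAM MSFs 789 ± 403 (SD, n = 3), 2.40 times as much. On the log2 scale the difference in limma was 1.24 ± 0.43 (SE), with a 95% confidence interval of 0.22 to 2.26. The adjusted p was 0.290 and the unadjusted limma p of 0.0236 put Jag1 at rank 962 of the 11877 genes by p. Blocking on the replicate number lowered the SE to 0.33, at an adjusted p of 0.166 and an unadjusted p of 0.0120 in limma. The log2 difference was 1.84, 1.57 and 0.31 in the pairs of replicates 1, 2 and 3. Without TAM replicate 1 the log2 fold change was 0.85 (unadjusted p = 0.0720) and without EtOH replicate 2 it was 0.88 (unadjusted p = 0.0733).

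Relative to the main receptor, there were 9.21, 7.63 and 10.3 Jag1 counts per 100 Notch2 counts in EtOH replicates 1, 2 and 3 and 40.7, 24.7 and 12.2 in TAM replicates. The ranges did not overlap, although TAM replicate 3 was close to EtOH replicate 3. The share of other gene pairs that separate in this way was not computed. Per 100 Hes1 counts there were 77.3, 36.4 and 168 Jag1 counts in EtOH and 326, 88.1 and 116 in TAM replicates, and these ranges overlapped. The genes tested whose values followed Jag1 most closely over the 6 libraries were Kcnip3, AI606181 and Dst, with Pearson's r of 0.995, 0.991 and 0.990 on the log2 scale. Among the genes tested 40 had an r above 0.95, and these r values describe 6 libraries only.

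Dll1 (ENSMUSG00000014773; chromosome 17, 15504318 to 15512940) encodes the ligand Delta-like 1. It had 24.8, 10.4 and 30.02 normalized counts in EtOH replicates 1, 2 and 3 and 48.4, 13.4 and 44.6 in TAM replicates. Every TAM library was above the EtOH library of its number, but replicate 2 was low in both groups and the groups overlapped. In limma the log2 fold change came to 0.61 ± 0.64 (SE), at an adjusted p of 0.727, with a 95% confidence interval of −0.89 to 2.11. A930024N18Rik covers 20.6% of the Dll1 exons from the opposite strand. Jag2 (ENSMUSG00000002799; chromosome 12, 114146801 to 114167706), the other Jagged ligand, had 2.98, 9.58 and 6.20 normalized counts in EtOH and 2.02, 1.66 and 8.05 in TAM replicates, under the filter in all libraries. Its groups overlapped.

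Hes1 (ENSMUSG00000022528; chromosome 16, 30064470 to 30065655) is the only one of the 3 target genes that MSFs expressed above the filter. It had 452, 510 and 268 normalized counts in EtOH replicates 1, 2 and 3 and 384, 628 and 483 in TAM replicates. The groups overlapped, and 2 of the 3 pairs had the higher value in TAM. In limma the log2 fold change came to 0.30 ± 0.30 (SE), at an adjusted p of 0.711, with a 95% confidence interval of −0.41 to 1.01. Per 100 Notch2 counts there were 11.9, 20.9 and 6.12 Hes1 counts in EtOH and 12.5, 28.1 and 10.5 in TAM replicates, also with overlap. Hes1 is also driven by signals other than Notch.

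Hey1 (ENSMUSG00000040289; chromosome 3, 8663362 to 8667039) had 0.68, 4.81 and 2.67 normalized counts in EtOH replicates 1, 2 and 3 and 1.41, 8.36 and 1.35 in TAM replicates. Heyl (ENSMUSG00000032744; chromosome 4, 122910799 to 122927118) had 0.77, 0 and 0 in EtOH and 1.58, 1.66 and 0.70 in TAM replicates. Both encode repressors of the HEY family, and both were close to 0. Their groups overlapped, and so did those of Notch4 and Jag2, the other members under the filter. In a fit without the filter the adjusted p was 0.933 for Hey1 and 0.388 for Heyl.

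Replicate 2 had the highest value of both groups for 3 members, Notch4, Hes1 and Hey1, and the lowest of both groups for 3 others, Notch2, Jag1 and Dll1. It went opposite ways for 2, Notch3 and Jag2, highest in EtOH and lowest in TAM. Of the 6 members tested these were 1, 3 and 1, and over all genes tested the shares were 19.5%, 18.7% and 29.8%. The highest EtOH value was 14.0 times the lowest for Notch3 and 1.79 times for Notch1, against a ratio of group means of 1.02 and 1.55. The higher value was in the TAM library in all 3 pairs for 3 of the 6 members tested, Notch1, Jag1 and Dll1, where 18.3% of all genes tested showed this, and in the EtOH library in all 3 pairs for 0 members, where 23.6% did.

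**Figure D3:**
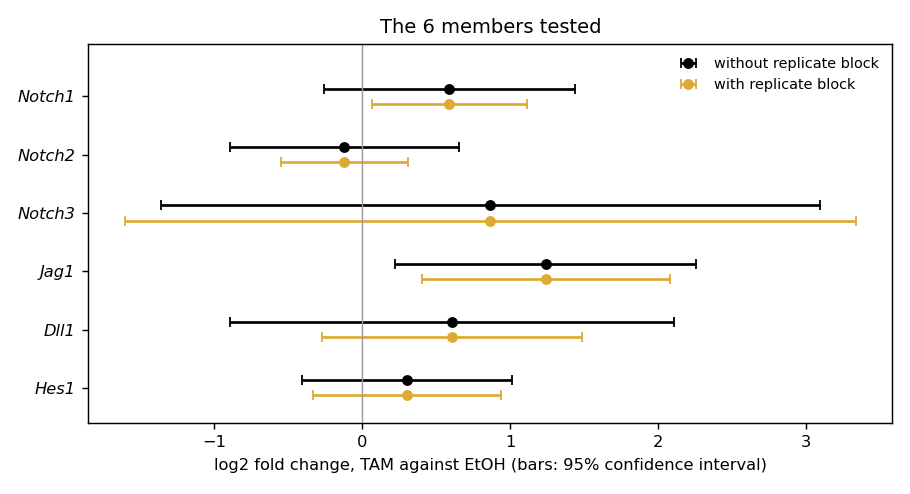
Log2 fold change of TAM against EtOH for the 6 members tested, with 95% confidence intervals from limma without (black) and with (yellow) a block on the replicate number. The interval of Jag1, 0.22 to 2.26 without the block, lies above 0, and that of Notch1 does so with the block only.

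The rest of the pathway was described with a list of 55 other genes, all found in the table, of which 42 were tested. Limma called 0 of the 42 at an adjusted p under 0.05 with and without the block, against 1.62% and 0.244% of all genes. At an unadjusted p under 0.05, 2 were higher and 2 lower without the block, against 6.67% and 6.7% of all genes. With the block 3 were higher and 2 lower, against 8.64% and 8.32%. The log2 fold change was positive for 20 and negative for 22, against 5487 and 6390 of all genes, with a median of −0.01 beside −0.03 over all genes tested. In 1 gene all TAM libraries lay above the EtOH libraries and in 3 all lay below, against 9.19% and 11.4% of all genes.

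Receptor cleavage was expressed in full: all 9 genes of ADAM proteases and γ-secretase listed were tested, and their log2 fold changes ran from −0.39 to 0.11. Aph1a, a scaffold subunit of γ-secretase, had 1919, 1910 and 1793 normalized counts in EtOH replicates 1, 2 and 3 and 1494, 1455 and 1348 in TAM replicates. The groups did not overlap, and in limma the log2 fold change came to −0.39 ± 0.15 (SE), at an adjusted p of 0.320 and an unadjusted p of 0.0328. Car14 covers 15.5% of its exons from the opposite strand. Psenen, another subunit, had 522, 686 and 514 in EtOH and 437, 504 and 480 in TAM replicates, without overlap (log2 fold change −0.27, limma adjusted p = 0.590).

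In the nucleus, Rbpj had 3358, 6471 and 2682 normalized counts in EtOH replicates 1, 2 and 3 and 2291, 4627 and 2637 in TAM replicates. Each TAM library was below the EtOH library of its number while replicate 2 was the highest of each group, and in limma the log2 fold change came to −0.35 ± 0.40 (SE), at an adjusted p of 0.747. The Mastermind co-activators Maml1 and Maml3 had log2 fold changes of −0.28 and 0.73 (limma adjusted p = 0.604 and 0.533). Of the 15 nuclear genes tested, 6 were positive and 9 negative, and 0 had an unadjusted p under 0.05 with or without the block. Pofut1 and Rfng, which add and extend sugars on the receptor, had log2 fold changes of 0.08 and −0.04 (limma adjusted p = 0.936 and 0.948).

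Among regulators of endocytosis and turnover, Dtx3, a Deltex E3 ligase, had 1324, 2517 and 1599 normalized counts in EtOH replicates 1, 2 and 3 and 1079, 947 and 1301 in TAM replicates. All TAM libraries were lower, at −0.67 ± 0.27 (SE) on the log2 scale, at an adjusted p of 0.349 in limma. Neurl1a, a Neuralized E3 ligase that acts on ligands, had 39.7, 68.7 and 46.9 in EtOH and 72.2, 121 and 82.9 in TAM replicates. All its TAM libraries were higher, at 0.82 ± 0.33 (SE) on the log2 scale, at an adjusted p of 0.354 in limma.

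Among the 42 genes tested, the log2 fold changes farthest from 0 were those of a pair of proteins related to the ligands. Dner, a Delta-like protein of neurons, had 29.4, 1.85 and 4.27 normalized counts in EtOH replicates 1, 2 and 3 and 132, 43.6 and 19.8 in TAM replicates. Every pair had the higher value in TAM, but TAM replicate 3 lay below EtOH replicate 1, and in limma the log2 fold change came to 2.69 ± 1.03 (SE), at an adjusted p of 0.325, or 0.0985 as the adjusted p with the block. Dlk1, a Delta-like protein without the domain that binds Notch in the usual way, had 13.8, 133 and 46.1 in EtOH and 10.8, 21.8 and 14.0 in TAM replicates. This amounted to −1.51 ± 0.79 (SE) on the log2 scale, at an adjusted p of 0.468 in limma. Of the other targets, Hes6 had a log2 fold change of 0.15 and Hey2 of −0.01 (limma adjusted p = 0.807 and 0.998), and Hey2 ran from 0.90 to 125 normalized counts within EtOH.

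**Figure D4:**
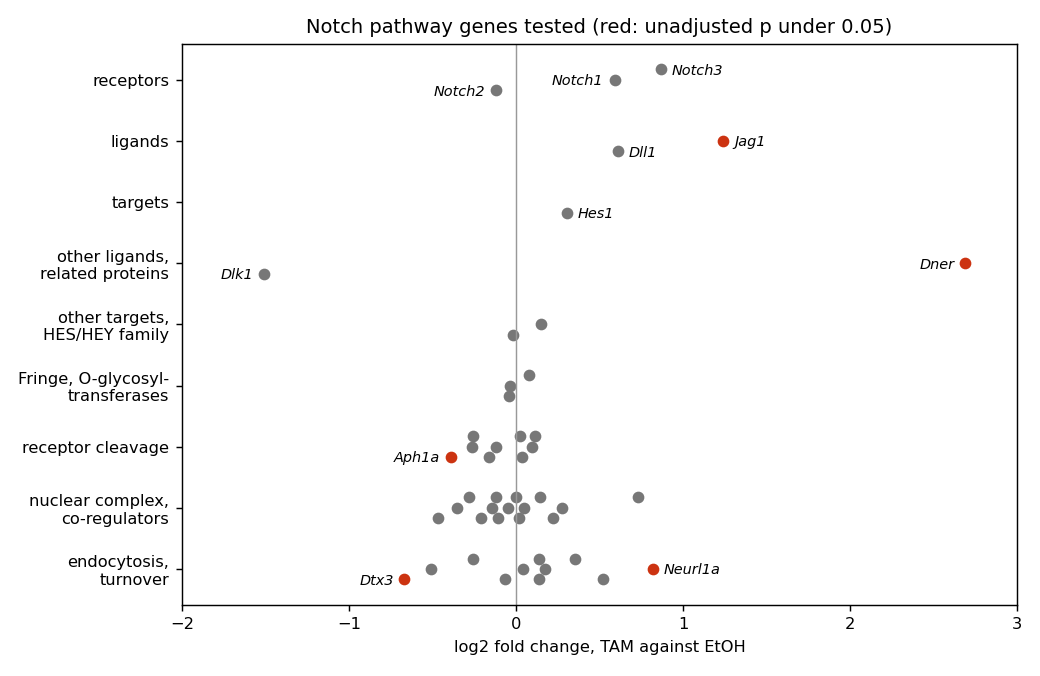
Log2 fold change of TAM against EtOH for the 6 members and 42 other Notch pathway genes tested, by role; red points had an unadjusted p under 0.05 in limma without the block. Jag1, Dner and Neurl1a are red above 0 and Aph1a and Dtx3 red below 0, while most genes of cleavage and of the nuclear complex lie near 0.

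Of the pathway genes under the filter, 13 beside the 4 members, 5 had all TAM libraries above all EtOH libraries and 0 had all below. Over all 5456 genes under the filter that were above 0 in any library, these shares were 10.2% and 2.86%. The number of genes above 0 was 15634 to 15710 in TAM and 14811 to 14918 in EtOH libraries, and its part in such low values was not tested. The 5 genes were Dtx1, Nrarp, Dlk2, Hes3 and Rbpjl, of which all but Nrarp were named after their values were seen. Dtx1, a Deltex gene that Notch switches on in lymphocytes, had 0.60, 0 and 0 normalized counts in EtOH replicates 1, 2 and 3 and 10.9, 7.53 and 16.1 in TAM replicates. In limma without the filter its adjusted p was 0.0525, and 0.0403 with the block. The fit with the block and no filter, chosen after seeing the data, called 125 genes higher and 80 lower among 17333. Nrarp, which encodes an inhibitor that Notch itself switches on, had 1.48, 0 and 1.73 in EtOH and 3.82, 4.18 and 6.13 in TAM replicates (limma adjusted p = 0.256 without the filter). Dlk2 had 1.35, 1.87 and 1.66 in EtOH and 7.44, 10.9 and 3.39 in TAM replicates. For Hes3 these were 0.7, 0.94 and 0.85 in EtOH and 3.11, 1.66 and 2.2 in TAM replicates. For Rbpjl they were 0.68, 0 and 0 in EtOH and 3.05, 1.66 and 3.76 in TAM replicates. Hes5, whose promoter with RBPJ letters is printed above, had 0.72, 0.94 and 2.71 in EtOH and 1.48, 1.66 and 2.25 in TAM replicates, with overlap between the groups. The endothelial ligand Dll4 had 0, 3.86 and 0 in EtOH and 2.31, 0.82 and 0.63 in TAM replicates.

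**Figure D5:**
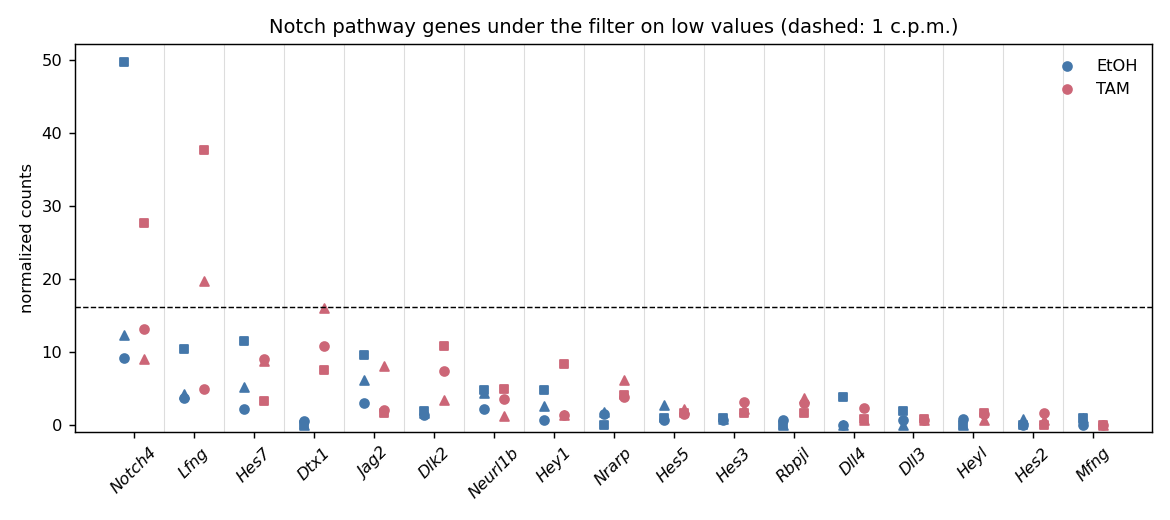
Normalized counts of the 17 Notch pathway genes under the filter on low values, on a linear axis, with EtOH libraries in blue and TAM libraries in red; circles, squares and triangles are replicates 1, 2 and 3, and the dashed line is 1 c.p.m. Dtx1, Nrarp, Dlk2, Hes3 and Rbpjl have all TAM libraries above the EtOH libraries, at no more than 16.1 normalized counts.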

How the data were processed

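Poly(A) RNA of MSFs treated with ethanol or TAM was sequenced in 3 libraries each. According to the study's methods and the labels, reads were mapped to mm9 with TopHat and counted with htseq-count on RefSeq genes. Tool versions and the strand setting are not given in the sources used here. The signal deposited by the authors is 1 table of normalized counts, whose values are not whole numbers, so count models were not run. Library sums were 14952367 to 17314953. Reads per library are not known, no interval for counting error was computed, and precision is that of 3 libraries against 3.

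The table's values were used as deposited. Differences were tested in R 4.3.3 with limma 3.58.1 and an intensity trend on log2(value + 1), limited to genes that reached 1 c.p.m. (16.2 normalized counts) in 3 or more libraries, and p-values were adjusted by Benjamini-Hochberg over all 11877 genes. The test was checked on simulated data, with planted changes larger than the log2 fold changes of the members and no effect of the replicate number. That check does not show whether changes of the members' size would be called. Across genes, libraries of the same number deviated together from the mean of their group (r of 0.241, 0.287 and 0.422), so a fit that blocks on this number was added. The pairing rests on these numbers alone. Exon lengths and overlaps came from the GENCODE mm9 annotation, which held 22148 of the identifiers. Python 3.11.15 with pandas 2.3.3 served for tables, and matplotlib 3.10.9 for figures.

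All 10 members are named. Of the other pathway genes, the text names up to 2 per role with the smallest unadjusted p, and Rbpj, Dll4, Hes5, Hey2 and Nrarp whatever their values. Dtx1, Dlk2, Hes3 and Rbpjl fall outside this rule and were named after their values were seen, as were the marker genes. The members and lists were chosen with earlier results of these data known. Lists of keratinocyte, macrophage, melanocyte and Schwann, and adipocyte markers were also summed: keratinocyte markers reached 70.5 to 87.0 normalized counts in EtOH and 63.4 to 214 in TAM libraries, macrophage markers 215 to 553 and 397 to 570, melanocyte and Schwann markers 299 to 798 and 182 to 693, and adipocyte markers 12.2 to 338 and 37.7 to 103.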

Additional observations from a re-analysis of the deposited data

How the results depend on the processing

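No alternative called a member. Over 14 alternatives the log2 fold change ran from 0.27 to 0.88 for Notch1, 0.14 to 2.01 for Notch3, 0.85 to 1.51 for Jag1, 0.17 to 1.18 for Dll1 and 0.02 to 0.49 for Hes1, and that of Notch2 ran from −0.39 to 0.13, with both extremes from leaving out a library. The lowest adjusted p in limma over these settings was 0.153 for Jag1. Genes called over the whole table were 20 higher and 9 lower. With the replicate block, which changed the call of no member, they were 119 and 73. They were 12 and 5 with no filter on low values, and 4 were lower where each library had to reach a value of 10. With each library left out in turn, 0 to 6 were higher and 0 to 9 lower. With no filter and the replicate block together, chosen after seeing the data, there were 125 and 80 among 17333 genes. This fit called 1 of the 55 other pathway genes, Dtx1. The cause of these changes was not tested. Pseudocounts of 0.1 and 10, scaling to equal sums and median-ratio scaling moved no count by over 1.5 times; scaling to equal sums moved the median log2 fold change of all genes from −0.03 to 0.08. Reads per library are not known, so the counting error of low values could not be given.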
